A study of Equus caballus with 4 samples.

Results

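The cyclin-dependent kinase (CDK) inhibitors, D cyclins and retinoblastoma (RB) family were examined as 10 genes, CDKN1A, CDKN1B, CDKN1C, CDKN2C, CCND1, CCND2, CCND3, RB1, RBL1 and RBL2, in differentiating equine satellite cells (ESC). Members were found by an exact match of the array's gene name. This gave 17 of the 43603 gene probes, for 8 of the 10 genes. CDKN1C and CCND1 had no probe under those names. The cells came from the m. semitendinosus of young stallions and were taken on day 3 of differentiation in low horse serum. The GO group received 0.125 µM gamma-oryzanol (GO, a mixture of ferulic acid esters from rice bran) for 24 h and 3 mM H2O2 during the last 1 h. The control received no GO, and the study's methods describe the DMSO vehicle in its medium and an H2O2 exposure, while the labels do not say whether the control received H2O2. Each of 4 horse arrays, all on 1 slide, carried RNA of the GO group in Cy5 (red) and of the control in Cy3 (green), so that the dye and the treatment cannot be told apart.

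The labels call the 4 arrays biological replicates of the GO group. They give the control the same replicate number on every array, and the study chose 1 primary cell line, so that p-values measure only the spread between these cultures. Across the 24230 probes tested, the log2 ratios of replicate 2 correlated less with those of replicates 3 and 4 (Pearson r = 0.17 and 0.24) than replicates 3 and 4 did with each other (r = 0.70), while replicate 1 had 0.52, 0.44 and 0.49 with replicates 2, 3 and 4. The lowest of these values were those of replicate 2 with replicates 3 and 4. The r of replicate 2 with replicate 1 was higher than those of replicate 1 with replicates 3 and 4. Replicate 2 is given apart for the member genes because their selection rule asks for it. Markers of myotubes, the fused cells that satellite cells form, were higher in the GO group. Of 6 markers, 5 passed the test as higher (83.3%, where 9.49% of all probes tested did so). The marker lists were chosen with earlier results of these data known. Each marker was read by its probe with the highest signal, so that the 2 shares are a description. The median log2 ratio over the 6 was 0.37. ACTA1, skeletal muscle actin, was the exception with 0.23 (adjusted p = 0.0614). Without replicate 2 all 6 passed, and without replicate 1, 3 or 4 the 5 lost the call. Of all 24230 probes, 2079 passed as higher without replicate 2. Without replicates 1, 3 and 4, only 2, 38 and 0 of them passed in either direction, so the loss was not particular to these markers. The summed normalised signal of the 6 was 342815 to 456712 in the GO group and 252233 to 337321 in the control. The marker ACTC1 alone had 189461 to 224041 and 135969 to 164825, and signals were not normalised between arrays. None of the 4 endothelial markers and none of the 4 adipocyte markers could be tested, and of the 3 fibroblast markers tested THY1 passed, with 0.28, while COL3A1 had 0.23 (adjusted p = 0.134) and DCN had -0.10 (adjusted p = 0.127). In bulk RNA, fewer cells of a type and less RNA per cell cannot be told apart.

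D cyclins bind CDK4 and CDK6, and the active kinases phosphorylate the RB proteins (RB1, p107 encoded by RBL1, and p130 encoded by RBL2), which then release E2F transcription factors and allow DNA replication. The CIP/KIP inhibitors p21 (CDKN1A), p27 (CDKN1B) and p57 (CDKN1C) bind cyclin and CDK together, whereas the INK4 inhibitors, among them p18 (CDKN2C), bind CDK4 and CDK6 themselves. In myogenesis, myoblasts leave the cell cycle before they fuse, and p21, p57, RB1 and cyclin D3 are known for their part in this exit.

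Probe sequences are shown for the inhibitors and cyclins, since how many separate measurements a gene has depends on them. The arrays carried 5 CDKN1B probes that start 1 base apart, at chr6 between positions 40733798 and 40733861 of the build EquCab1 on the plus strand. They are printed 5′ to 3′ with the 56 bases that all 5 share in capitals.
CDKN1B probe 1 (A_69_P052071): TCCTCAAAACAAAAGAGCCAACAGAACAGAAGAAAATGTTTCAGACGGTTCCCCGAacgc
CDKN1B probe 2 (A_69_P052072): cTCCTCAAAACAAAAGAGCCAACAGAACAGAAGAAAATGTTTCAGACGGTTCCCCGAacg
CDKN1B probe 3 (A_69_P052073): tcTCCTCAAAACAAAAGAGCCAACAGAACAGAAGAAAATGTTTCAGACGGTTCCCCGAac
CDKN1B probe 4 (A_69_P052074): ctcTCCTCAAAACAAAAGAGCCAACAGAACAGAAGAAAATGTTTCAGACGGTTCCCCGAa
CDKN1B probe 5 (A_69_P052075): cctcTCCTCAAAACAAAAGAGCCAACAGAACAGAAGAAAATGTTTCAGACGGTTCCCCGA
The lower case letters are the bases in which the probes differ. The 5 probes read 1 stretch of 1 transcript and are not independent measurements of CDKN1B.

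The 2 CDKN2C probes lie on the minus strand at chr2:6551256-6551315 (A_69_P085196) and chr2:6551286-6551345 (A_69_P085197) and share 30 bases, which are the first 30 bases of the former and the last 30 of the latter, printed here in capitals.
CDKN2C shared stretch: TCTCAATACCCAACTTGGAGATTTTGTTTT
The single probes of CDKN1A (A_69_P038681), CCND3 (A_69_P038946) and the CCND2 probe with the highest signal (A_69_P051426) follow, with capitals for the stop triplet TAA at the end of the CDKN1A probe.
CDKN1A: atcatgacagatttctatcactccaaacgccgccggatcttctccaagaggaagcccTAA
CCND2 probe 1: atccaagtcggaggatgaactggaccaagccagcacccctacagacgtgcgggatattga
CCND3: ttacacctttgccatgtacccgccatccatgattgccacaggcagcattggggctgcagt
The CDKN1A probe, of 60 bases, was placed over 1421 bases at chr20:30004703-30006123 on the plus strand and so crosses a gap between aligned blocks. CCND2 probe 1 lies at chr6:32322239-32322298 on the plus strand and the CCND3 probe at chr20:34656540-34656599 on the minus strand.

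Of the 17 probes, 15 for 7 genes were well above background on all 4 arrays in at least one channel and were tested in the fit across all 24230 probes. A single probe, of CDKN1B, passed the threshold of 0.05 (limma with Benjamini-Hochberg adjustment), and it was higher in the GO group. This was 6.67% of the 15, where 17.1% of all probes tested passed. At an unadjusted p under 0.05 there were 5 of 15 (33.3%), beside 36.7% of all probes. All 4 arrays lay on the same side of 0 for 5 of 15 probes (33.3%), beside 43.8% of all probes. The median absolute log2 ratio was 0.07 for these probes and 0.09 for all, and the median SD over arrays was 0.09 for both. Without replicate 2, a different pair of probes passed, both of CDKN2C and both lower (13.3% of 15), where 16.1% of all probes passed in either direction and 7.51% passed as lower.

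**Figure D1:**
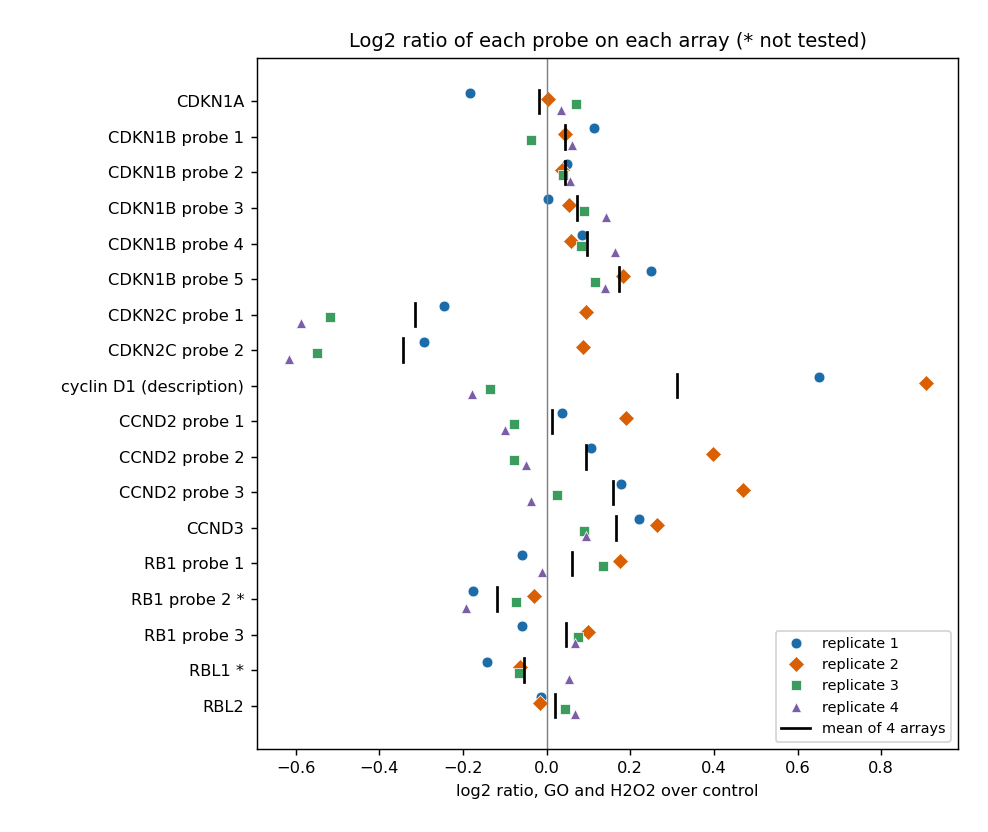
Log2 ratio of GO with H2O2 over control (x axis) for the 17 probes and for the cyclin D1 probe found by description (y axis), with a point for each array, replicate 2 as an orange diamond and the mean of the 4 arrays as a black line. The CDKN2C probes are below 0 on 3 arrays (-0.25 to -0.62) and above 0 on replicate 2 (0.09), and CCND3 and CDKN1B probe 5 are above 0 on every array.

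CDKN1A encodes p21, which halts the cycle after DNA damage and also rises as myoblasts differentiate. Its signal in the GO group was 231, 165, 175 and 182 on replicates 1 to 4, and in the control it was 262, 164, 166 and 178. The control was higher on replicate 1 only, and the other 3 arrays differed by at most 0.07 on the log2 scale. The mean log2 ratio was -0.02 ± 0.11 (SD, n = 4, limma adjusted p = 0.822), and its 95% confidence interval ran from 0.905-fold to 1.08-fold. Replicate 2 had 0.00 and the other 3 arrays a mean of -0.03 (adjusted p = 0.798 without replicate 2).

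CDKN1B encodes p27, an inhibitor of cyclin E with CDK2 that is held down in dividing cells by protein degradation. Its probe 5 gave a signal of 384, 299.9, 253 and 258 in the GO group and of 323, 264, 234 and 235 in the control, on replicates 1 to 4. The GO group was higher on each of the 4 arrays. It rose, with log2 ratios of 0.25, 0.18, 0.12 and 0.14 and a mean of 0.17 ± 0.06 (SD, n = 4; 1.13-fold, 95% confidence interval 1.05 to 1.21; adjusted p = 0.0387). The other 4 probes, which differ from it by 1 to 4 bases at each end, had means of 0.10, 0.07, 0.04 and 0.04 in the order of their distance from probe 5, and none passed (adjusted p = 0.128, 0.247, 0.409 and 0.471).

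Over the 5 probes, which are not independent measurements, 19 of 20 log2 ratios were above 0, from -0.04 to 0.25. Their mean was 0.09, which did not pass (adjusted p = 0.128 for the mean over the probes). By array, the mean over the 5 probes was 0.10, 0.07, 0.06 and 0.11, so that replicate 2 lay among the others. Of all 24230 probes, only 2, 38 and 0 passed without replicates 1, 3 and 4, and 12 with median centring. A call lost in those fits is therefore not particular to CDKN1B. Without replicate 2, 3899 probes passed, and without the replicate block 594 did. The call of probe 5 was lost when any 1 array was left out, with adjusted p = 0.145, 0.0685, 0.0776 and 0.112 without replicates 1, 2, 3 and 4, while the ratio stayed between 0.15 and 0.19. It was also lost with median centring in place of loess (adjusted p = 0.795), without the replicate block (0.104) and with the methods' t-test (0.0993).

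**Figure D2:**
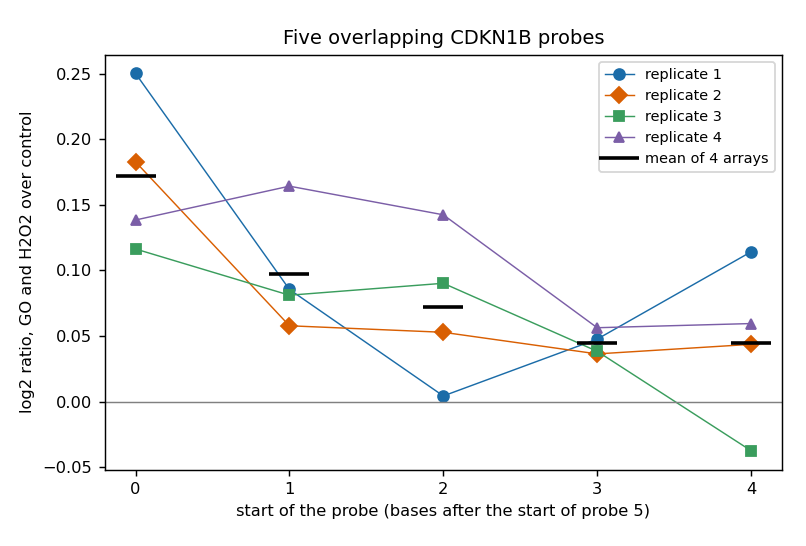
Log2 ratio of GO with H2O2 over control (y axis) for the 5 CDKN1B probes, placed by the start of each probe in bases after the start of probe 5 (x axis), with a line for each array and a black bar for the mean of the 4 arrays. The means go from 0.17 at probe 5 through 0.10 and 0.07 to 0.04 and 0.04, and a single value, of replicate 3 at probe 1, is below 0.

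CDKN2C encodes p18, an INK4 inhibitor of CDK4 and CDK6 whose gene is also known as an E2F target. Its mean ratios were the farthest from 0 of all tested probes of these genes, and the 2 probes gave nearly the same values. For probe 2 (A_69_P085197) the signal was 1520.2, 1520.1, 978 and 1189 in the GO group and 1864, 1431, 1432 and 1823 in the control. The GO group was lower on replicates 1, 3 and 4 and slightly higher on replicate 2. The log2 ratios were -0.29, 0.09, -0.55 and -0.62, with a mean of -0.34 ± 0.32 (SD, n = 4; 95% confidence interval -0.61 to -0.07; adjusted p = 0.0781), which did not pass. For probe 1 (A_69_P085196) they were -0.25, 0.09, -0.52 and -0.59, with a mean of -0.31 ± 0.31 (adjusted p = 0.0908).

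Without replicate 2, both CDKN2C probes passed. Probe 2 fell by 0.49 on the log2 scale over replicates 1, 3 and 4 (SD 0.17, n = 3; 1.40-fold higher in the control; 95% confidence interval of the log2 ratio -0.66 to -0.32; limma adjusted p = 0.0163), and probe 1 fell by 0.45 (SD 0.18, adjusted p = 0.0193). In the other alternatives neither probe passed. Adjusted p for probe 2 ranged from 0.0587 (array weights) to 0.769 (median centring), and for probe 1 from 0.0701 to 0.769. For probe 2 it was 0.183, 0.208 and 0.247 without replicates 1, 3 and 4, and 0.272 with the methods' t-test. Replicate 2, whose removal gave the call, is the array on which the genes of DNA replication were also higher in the GO group. The part of that difference between arrays in the CDKN2C values was not tested.

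**Figure D3:**
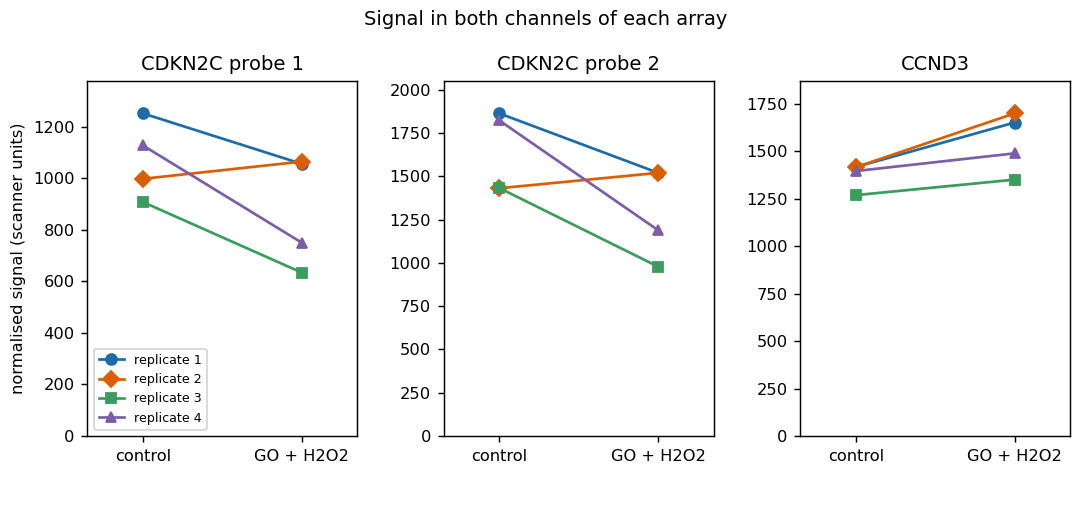
Normalised signal in scanner units (y axis, from 0) of the control and of the GO with H2O2 group (x axis) for both CDKN2C probes and for CCND3, with a line joining the 2 channels of each array. The CDKN2C lines descend on replicates 1, 3 and 4 and ascend on replicate 2, and the CCND3 lines ascend on all 4 arrays.

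CCND2 encodes cyclin D2, which drives growth of myoblasts, and CCND3 encodes cyclin D3, which is kept in differentiating muscle cells and binds RB1 there. CCND2 probe 1 had a signal of 13335, 13397, 9674 and 8897 in the GO group and of 13003, 11744, 10219.8 and 9529 in the control. The GO group was higher on replicates 1 and 2 and lower on replicates 3 and 4, and the 2 groups overlapped. Its log2 ratios were 0.04, 0.19, -0.08 and -0.10 (mean 0.01 ± 0.13; adjusted p = 0.898; 95% confidence interval 0.917-fold to 1.11-fold). Probes 2 and 3 (A_69_P102861 and A_69_P102862), which overlap at their ends on chromosome 6 between positions 32327316 and 32327426 and were designed on a contig from blood cells, had 0.11, 0.40, -0.08 and -0.05 (mean 0.09 ± 0.22, adjusted p = 0.439) and 0.18, 0.47, 0.03 and -0.04 (mean 0.16 ± 0.23, adjusted p = 0.215). On all 3 probes replicate 2 was the highest array. Without it the means were -0.05, -0.01 and 0.06, so that the first 2 probes changed sign, and none passed (adjusted p = 0.549, 0.937 and 0.527).

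CCND3 had a signal of 1651, 1699, 1350.2 and 1489 in the GO group and of 1417, 1416, 1268 and 1395 in the control. The GO group was higher on each array, and its lowest value lay below the highest control value. The log2 ratios were 0.22, 0.26, 0.09 and 0.09, with a mean of 0.17 ± 0.09 (SD, n = 4; 1.12-fold, 95% confidence interval 1.04 to 1.21). This lay just outside the threshold (adjusted p = 0.0540), and it passed without background correction (adjusted p = 0.0496) and with array weights (adjusted p = 0.0456), but not in the other alternatives, where adjusted p ranged from 0.0516 (mean over probes) to 0.845 (median centring) and was 0.369 without the replicate block. Without replicate 2 the mean was 0.13 (adjusted p = 0.118).

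CCND1 had no probe by name, but the description of 1 probe (A_69_P011541, placed over 2700 bases on chromosome 12 between positions 19121563 and 19124262) reads cyclin D1, and it is given here outside the rule, after its values were seen. Its signal was 1370.2, 1555, 768 and 695 in the GO group and 873, 829, 843 and 786 in the control. The GO group was higher on replicates 1 and 2 and lower on replicates 3 and 4. The log2 ratios were 0.65, 0.91, -0.14 and -0.18 (mean 0.31 ± 0.55, adjusted p = 0.273), and without replicate 2 the mean was 0.11 (adjusted p = 0.634). The control signals lay within 786 to 873 and the GO signals within 695 to 1555. Signals were not normalised between arrays, so that the channel behind the spread of the ratios cannot be told.

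RB1, the founding member of the RB family, had 3 probes on the minus strand of chromosome 17. Probe 3 (A_69_P116636, chr17:21403652-21403711), nearest the 3′ end, had a signal of 1118, 939, 643 and 964 in the GO group and of 1165, 877, 611 and 919 in the control. The GO group was slightly lower on replicate 1 and slightly higher on the other 3 arrays. Its log2 ratios were -0.06, 0.10, 0.07 and 0.07 (mean 0.05 ± 0.07; adjusted p = 0.479; 95% confidence interval 0.961-fold to 1.11-fold), and without replicate 2 the mean was 0.03 (adjusted p = 0.732). Probe 1 (A_69_P002491, chr17:21405286-21405345) had -0.06, 0.17, 0.14 and -0.01 (mean 0.06 ± 0.11, adjusted p = 0.437, and mean 0.02, adjusted p = 0.807, without replicate 2). Probe 2 (A_69_P002492, chr17:21405366-21405425) was well above background on 3 arrays in red and 2 in green and was not tested, and its ratios were -0.18, -0.03, -0.07 and -0.19, all below 0 where the tested probes had means above 0.

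The pocket proteins p107 and p130 bind mainly E2F4 and E2F5, and p130 is the form that accumulates in resting cells. RBL2, which encodes p130 (A_69_P081151, chr3:5967427-5967486, plus strand), had a signal of 323, 246, 204 and 201 in the GO group and of 326, 248, 197 and 192 in the control. Its log2 ratios of -0.01, -0.01, 0.04 and 0.07 gave a mean of 0.02 ± 0.04 (adjusted p = 0.725), and the 95% confidence interval ran from 0.951-fold to 1.08-fold. Without replicate 2 the mean was 0.03 (adjusted p = 0.661). RBL1, which encodes p107 (A_69_P025156, chr22:27477812-27477871, minus strand), was well above background on 2 arrays in each channel and was not tested. Its log2 ratios were -0.14, -0.06, -0.07 and 0.05. The largest distance of any RBL1 or RBL2 value from 0 was 0.14.

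Beside the 10 genes, 70 genes of the same pathway were taken in 7 lists. Of these, 66 had a probe and 61 were tested, each by its probe with the highest signal. Of the 61, 6 were higher and 1 lower at the threshold, which is 11.5% where 17.1% of all probes passed (9.49% higher and 7.59% lower). Among the 6 was SKP2, described below, whose probe entered the test through the GO channel alone. Without replicate 1, 3 or 4 none of the 61 passed, while 2, 38 and 0 of all 24230 probes did. In each of these 3 fits 11 of the 61 (18.0%) had an unadjusted limma p under 0.05, beside 26.8%, 30.2% and 27.6% of all probes. Among the kinases and other cyclins, 10 were tested and 1 passed, CDK7, the kinase that activates other CDKs, which fell by 0.24 on the log2 scale (adjusted p = 0.0179). Its partner CCNH had -0.11 (adjusted p = 0.0955), and CDK4, the partner of the D cyclins, had 0.12 (adjusted p = 0.157). None of the 4 other CDK inhibitors and none of the 8 E2F and DP factors passed. CDKN3 had -0.28 (adjusted p = 0.231), CDKN2A 0.07 and CDKN2D -0.04, while TFDP1 had 0.10 (adjusted p = 0.116), E2F4 0.11 and E2F6 -0.08, which was -0.23 with Agilent's processed signals (adjusted p = 0.0343). At an unadjusted p under 0.05, only TFDP1 was found among both lists.

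The E2F target genes of DNA replication moved differently by array. None of the 13 passed with all 4 arrays, and MCM4, a subunit of the replicative helicase, came closest with -0.34 (adjusted p = 0.0589, and 0.0416 with array weights), before RRM2 (-0.40, adjusted p = 0.134) and RRM1 (-0.22, adjusted p = 0.160), the subunits of ribonucleotide reductase. The median of the list was -0.22, 0.26, -0.40 and -0.21 on replicates 1 to 4, beside -0.01 to 0.01 over all probes, and all 13 genes were above 0 on replicate 2. Without replicate 2, 8 of the 13 (61.5%) passed as lower, and so did 4 of the kinases and cyclins (CDK1, CCNB1, CCNB2 and CDK7), which apart from CDK7 are named after their values were seen. CDK1, the kinase of mitosis, had -0.42, 0.40, -0.92 and -0.78. CDKN3 also passed as lower without replicate 2 (adjusted p = 0.0249). In all 7 lists, 5 genes were then higher and 15 lower, so that 32.8% of the 61 passed and 24.6% passed as lower, where 16.1% and 7.51% of all probes did. Leaving out replicate 2, on which all 13 replication genes were above 0, itself favours calls as lower for them. The lists were also chosen with earlier results of these data known, so that these shares are a description and not a separate test.

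**Figure D4:**
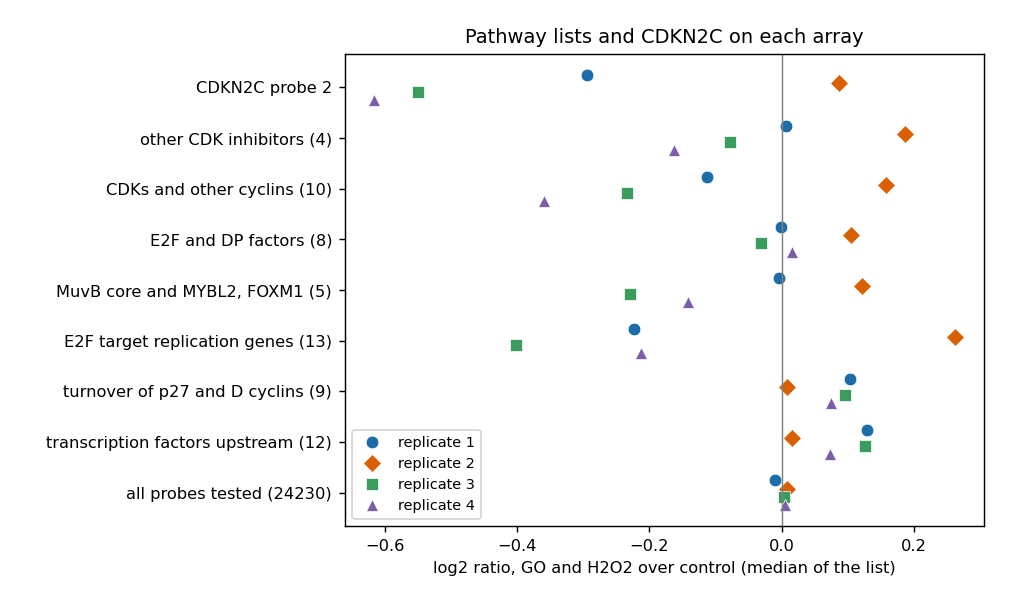
Median log2 ratio of GO with H2O2 over control on each array (x axis) for the 7 pathway lists, with the number of genes tested in parentheses, for CDKN2C probe 2 and for all probes tested (y axis). On replicate 2 (orange diamonds) CDKN2C is at 0.09 and the E2F target replication genes at 0.26, and on the other arrays both are below 0.

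The MuvB core forms the DREAM repressor complex with p107 or p130 and other complexes with MYBL2 and FOXM1. In this list LIN37 rose by 0.27 (adjusted p = 0.0158), LIN54 had -0.24 (adjusted p = 0.0508) and LIN9 had -0.24 (adjusted p = 0.0871), of 5 tested. LIN9 and LIN54 passed as lower without replicate 2 (adjusted p = 0.0170 and 0.0207). Of the 9 tested genes for the turnover of p27 and D cyclins, SKP2, the ubiquitin ligase subunit that marks p27 for degradation, rose by 0.30 (adjusted p = 0.0149), with 0.33, 0.25, 0.31 and 0.32 on the 4 arrays. Its probe was well above background on 4 arrays in the GO channel but on 2 in the control channel (signal 85.7 to 129), so that it entered the test through the GO channel alone. GSK3B, whose kinase marks D cyclins for degradation, had 0.13 (adjusted p = 0.0721), and UBAC1, whose product is part of another ligase for p27, had -0.12 (adjusted p = 0.126).

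Of 12 tested transcription factors that act on these genes, 4 passed and all were higher (33.3%, where 9.49% of all probes passed as higher). MYOG, the myogenin gene, which is also on the myoblast marker list, rose by 0.33 (adjusted p = 0.0212), and its muscle partners MEF2A and MEF2C rose by 0.26 and 0.20 (adjusted p = 0.0233 and 0.0274). Of the 4 tested myoblast markers MYOG alone passed, and the others had means from 0.02 to 0.15 (limma adjusted p = 0.224 to 0.809). FOXO1, an activator of CDKN1B that is named after its value was seen, rose by 0.14 (adjusted p = 0.0497), and this call was also lost without replicate 2 (adjusted p = 0.0601). MYOG, MEF2A and MEF2C were higher in the GO group, as were the myotube markers, whose part in these values was not tested. By array, MYOG had 0.30, 0.37, 0.48 and 0.16, beside a median of the myotube markers of 0.46, 0.28, 0.44 and 0.27.

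The list genes nearest in pattern to each member were taken by the mean absolute difference of the 4 log2 ratios, over 61 genes and 4 arrays, as a description. For CDKN2C the nearest was CDC6, a loading factor of the replicative helicase, with -0.30, 0.27, -0.58 and -0.44 (mean difference 0.10), followed by LIN9 (0.11). For CCND2 it was E2F1 (0.04), for CDKN1B it was MEF2C (0.04) and for CCND3 it was CDK4 (0.06). For CDKN1A and RB1 the nearest was CDK2 (0.08 and 0.06), the partner of cyclin E, and for RBL2 it was TFDP2 (0.03). The CDKN2C distance was the largest of the 7, and its 4 ratios also spread the most (SD 0.32).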

How the data were processed

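Total RNA was measured on 4 two-colour Agilent horse arrays with 60-base probes. The deposited scanner files hold intensity values (mean signal, local background and processed signals) that the authors extracted with Agilent Feature Extraction 10.10.1.1, and the deposited LogRatio is the log10 of processed red over green, already background-subtracted and dye-normalised. The deposited value table held the same log10 ratios (largest difference 0). Coordinates follow EquCab1, per the file headers.

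Mean signals were background-corrected (normexp, offset 50), loess-normalised within each array with control spots at weight 0, and averaged by probe without outlier spots, and the log2 ratios, computed from the authors' intensity values, were fitted with limma 3.58.1 in R 4.3.3 against 0 (two-sided, Benjamini-Hochberg over 24230 probes, threshold 0.05). The ratio pairs both channels of an array, which is the replicate block. Probes had to be well above background on all 4 arrays in red or in green. Between 54.9% and 61.4% of gene spots were so in a channel, and the number of arrays limits the precision. The script was tested on simulated data. A gene's value is that of its probe with the highest signal. Of each list, up to 3 genes with the smallest p and, for each member, its nearest genes were named. Some pathway genes are not reported here. The members and lists were chosen with earlier results of these data known. Alternatives were other signals, background, scaling, filters, weights and tests, the mean over probes, and each array left out. The annotation of EquCab1 was not used here, so that exons and untranslated regions are not given.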

Additional observations from a re-analysis of the deposited data

Results flagged for a closer look

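E2F1, which encodes an E2F factor that RB1 binds, had log2 ratios of -0.06, 0.20, -0.06 and -0.07, and replicate 2, at 0.20, lay far from the other 3 arrays for their spread. It was 1 of 51 sets of 4 array values examined for such a gap, where about 1 in 20 would show one by chance.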

How the results depend on the processing

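All counts below are of results past the adjusted threshold, and the cause of each change was not tested. The 4137 probes became 12 with median centring in place of loess, 594 without the replicate block (both channels as separate samples) and 5 with the methods' t-test, and they ranged from 0 (without replicate 4) to 3899 (without replicate 2) when 1 array was left out. The 1 member probe became 2 without background correction and 2 with array weights, CCND3 being added in both, 0 with median centring, 0 without the replicate block and 0 with the methods' t-test, and 0 to 2 with 1 array left out. The 7 pathway genes became 0 with median centring, 2 without the replicate block and 0 with the methods' t-test, and 0 to 20 with 1 array left out. Some signs changed. CDKN1A was 0.012 in both fits on Agilent's processed ratios (the scanner files and the value table) and -0.048 to 0.036 with 1 array left out. With 1 array left out, CCND2 probe 1 ranged from -0.047 to 0.049, CCND2 probe 2 (0.09 with all arrays) from -0.0075 to 0.15, E2F1 from -0.059 to 0.029 and CDK2 from -0.016 to 0.014. E2F1 was -0.0037 with median centring and -0.0063 with array weights. No fit with the slide as a block was run, since all arrays lie on 1 slide.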
